A study of Mus musculus with 16 samples.

Results

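The expression of 35 genes of the germline was followed in 16 immortalised mouse embryonic fibroblast (MEF) lines. The genes were picked by name from 3 groups known from the literature (10 for meiotic chromosomes, 14 for piRNA and 8 others of germ cells) together with 3 genes of pluripotent cells, and were matched by symbol to the mm10 annotation. The list was drawn up as germline genes silenced by promoter methylation. All 35 were found among the 54453 genes of the table and the 21872 that are protein-coding. The lines come from 2 C57BL/6J embryos from the same litter taken at E13.5, with no treatment named, and were immortalised by serial passage through crisis. They are the parental line MEF-1 (male) with 7 clonal lines and the parental line MEF-2 (female) with 7 clonal lines. Each clonal line is the progeny of 1 sorted cell, and each of the 16 lines has 1 library of total RNA. The 7 clonal lines of a set served as its replicates, so that the p-values measure the spread between clones of 1 embryo, and embryo, sex and passage history cannot be told apart as sources of a difference between the sets.

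Germline genes serve meiosis, the silencing of transposons by piRNAs and the making of gametes. Many of them have CpG-rich promoters that become methylated when the embryo forms its body tissues, and in fibroblasts they are known for staying silent. In mouse cells a repressor complex with E2F6, MGA and MAX, which reads the DNA words GCGGGA and CACGTG, takes part in setting up this silence. DNA methylation of these lines was not analysed here, so the RNA speaks to the expression of the genes and not to the state of their promoters. As total RNA of a whole line was sequenced, fewer expressing cells and less RNA per cell cannot be told apart.

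Promoters were read from RefSeq on GRCm38.p6 (the same coordinates as mm10) as the window from 250 bases before to 50 bases after the most upstream start of each gene. Windows were found for 29 of the 35 genes. Dppa2, Dppa4, Piwil2, Tdrd6, Tex11 and Tex15 had no entry. The 29 windows held a median of 20 CpGs (10 to 48), and the 17491 windows of all protein-coding genes a median of 13 (0 to 65). All 29 held 10 CpGs or more, which was so for 57.2% of all windows. CACGTG was found in 15 of the 29 (51.7%) and in 7.91% of all windows, and GCGGGA on either strand (so also its reverse complement, TCCCGC) in 13 (44.8%) and in 25.8%. The 2 words can share at most 1 base, and 7 of the 29 windows (24.1%) held both of them, against 2.74% of all windows. As the list was drawn up for silencing by promoter methylation, such promoters may follow from the choice of genes. The windows of all genes were not matched for CpG number, and both words hold a CpG. These shares therefore describe the list and test nothing. The share with CACGTG was 50% among the 18 germline genes whose average expression was 0 or lower and 54.5% among the 11 above it. For GCGGGA the shares were 33.3% (6 of 18) and 63.6% (7 of 11), a contrast of few windows that was not tested. Piwil2, Tdrd6 and Tex15, whose average was also above 0, had no window.

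The 250 bases before the start are shown for the 2 genes with the largest difference between the sets of lines (Brdt and Smc1b), for the gene that varied most between clonal lines (Ddx4) and for a gene without reads in any line (Mael). They are written in the direction of the gene, with both words in capitals. They lie at chr5:107330944-107331193 on the plus strand (Brdt) and on the minus strand at chr15:85131958-85132207 (Smc1b), chr13:112652311-112652560 (Ddx4) and chr1:166238745-166238994 (Mael).
Brdt: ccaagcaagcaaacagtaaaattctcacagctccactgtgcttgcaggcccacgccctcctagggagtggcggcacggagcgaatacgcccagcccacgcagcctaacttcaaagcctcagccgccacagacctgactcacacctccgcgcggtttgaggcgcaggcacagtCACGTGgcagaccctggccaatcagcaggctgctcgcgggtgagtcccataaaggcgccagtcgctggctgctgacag
Smc1b: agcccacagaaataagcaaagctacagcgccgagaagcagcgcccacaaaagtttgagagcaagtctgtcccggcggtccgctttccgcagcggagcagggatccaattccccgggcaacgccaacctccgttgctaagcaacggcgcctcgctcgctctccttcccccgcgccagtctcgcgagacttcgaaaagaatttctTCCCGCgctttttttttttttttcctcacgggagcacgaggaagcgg
Ddx4: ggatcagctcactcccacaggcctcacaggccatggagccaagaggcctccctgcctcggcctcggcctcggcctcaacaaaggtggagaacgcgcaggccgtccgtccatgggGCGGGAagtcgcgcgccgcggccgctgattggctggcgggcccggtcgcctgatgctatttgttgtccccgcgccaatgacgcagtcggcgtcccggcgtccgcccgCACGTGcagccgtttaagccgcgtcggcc
Mael: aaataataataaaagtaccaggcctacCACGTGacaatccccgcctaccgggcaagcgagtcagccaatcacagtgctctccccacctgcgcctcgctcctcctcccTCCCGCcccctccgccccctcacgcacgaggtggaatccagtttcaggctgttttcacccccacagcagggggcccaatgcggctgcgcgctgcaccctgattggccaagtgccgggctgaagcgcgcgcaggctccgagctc
The whole windows held 23 CpGs for Brdt, 29 for Smc1b, 38 for Ddx4 and 24 for Mael. CACGTG began 78 bases before the start of Brdt, 29 before that of Ddx4 and 223 before that of Mael. Smc1b had no CACGTG in its window and 1 TCCCGC, 47 bases before the start. Ddx4, which had reads in at least some lines, and Mael, which had none in any line, both held both words.

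**Figure D1:**
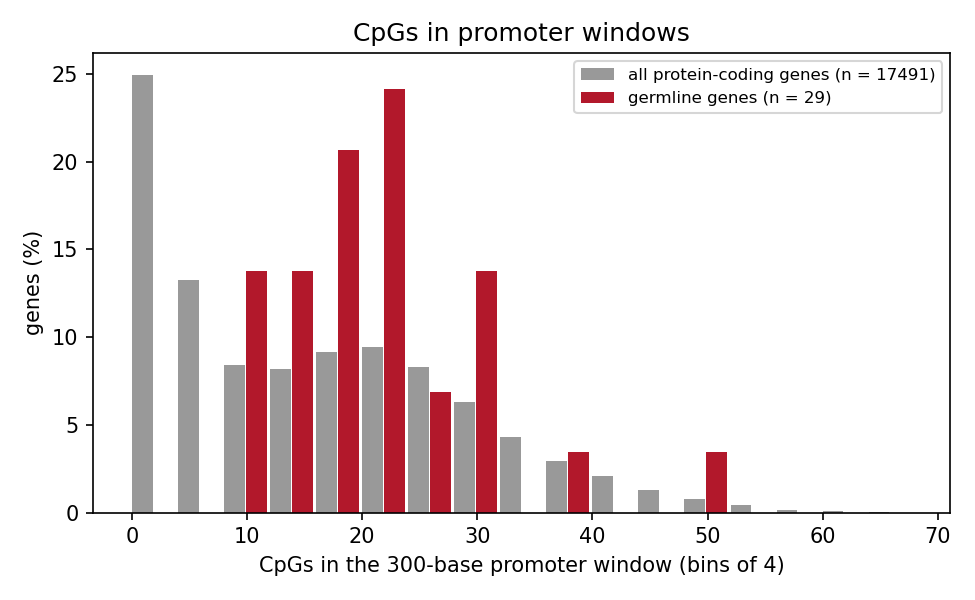
Share of genes (vertical axis, %) by number of CpGs in the promoter window (horizontal axis, bins of 4) for 29 germline genes (red) and 17491 protein-coding genes (grey). The germline genes have no window with under 10 CpGs, and their median is 20 against 13.

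The values are regularised log (rlog) values, that is, log2 of a count adjusted for library size, with each line drawn towards the average of the gene, most strongly where reads are few. They are not adjusted for gene length and are compared here between lines and not between genes. The table holds no counts, so the depth of the libraries is unknown. A gene without reads in any line is listed at exactly 0 in all 16. Where a gene has reads in only some lines, the lines without a read still receive a value, which lies on a straight line against the level of the lowest genes of each library (from −2.285 to −2.279). A line was taken as without reads of a gene when at least 3 lines lay on 1 such line within 0.005 and its slope was at most 50. Among 8648 genes with an average above 10, where lines without reads are not at issue, 3.62% met this rule by coincidence, so that a match of 3 or 4 lines is weak on its own. The Y-linked genes Ddx3y, Kdm5d, Eif2s3y and Uty checked this reading, as each had exactly the 8 MEF-2 lines at the level without reads. As markers of the labelled cell type, 10 of 10 fibroblast genes had an average above 0, Col1a1 among them at 21.04 ± 0.27 in the clones of MEF-1 and 20.74 ± 0.28 in those of MEF-2 (SD, n = 7 each). The fibroblast marker Thy1 had 4 lines at the level without reads. All 4 epithelial, all 4 endothelial and 3 of 4 blood markers also had an average above 0, so this bound alone does not tell cell types apart. Of 10 markers of germ and pluripotent cells, 6 had an average of 0 or lower, with Utf1 at 0 in all lines and Dppa3, Sall4 and Lin28a at the level without reads in all but 1. The other 4 had an average above 0 and did not meet the rule, which cannot show fewer than 3 lines without reads. Of these, Prdm1 was higher in MEF-1 (0.98; limma, adjusted p = 0.000254), Nanog (−0.80, adjusted p = 0.000821) and Nanos3 (−0.45, adjusted p = 0.0401) were higher in MEF-2, and Pou5f1 was not called (0.21, adjusted p = 0.261). The mean over the 10 lay between 0.42 and 0.60 in clones of MEF-1 and between 0.45 and 0.56 in those of MEF-2.

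Most of the 35 genes had an average of 0 or lower. Hormad1 (meiotic chromosome axis), Mael (piRNA pathway), Tex101 (a surface protein of germ cells), Rpl10l (a ribosomal protein of the testis) and Zfp42 (Rex1, a marker of pluripotent cells) were listed at 0 in all 16 lines. These 5 genes make 14.3% of the 35, near the 16.9% of all protein-coding genes. Together with 16 genes whose average lay below 0, the number with an average of 0 or lower came to 21 (60%), and 30.1% of all protein-coding genes were in this class. This is a bound on the average, and each of the 16 lay above its level without reads in 1 to 6 lines. The class held 4 of the 10 genes of meiotic chromosomes, 9 of the 14 of the piRNA pathway, 5 of the 8 other germ cell genes and all 3 of pluripotent cells. By the average, which is not adjusted for gene length, the remaining 14 genes lay above 0, 10 of them below the 40th percentile of protein-coding genes (3.75) and 4 (Piwil2, Tex15, Brdt and Stag3) between the 40th and the 60th (9.95). No gene of the 35 lay above that. For Stag3, Tex15 and Brdt, whose lowest value in any line was 7.72, 5.25 and 4.63, the name of silenced genes does not hold in these lines by their RNA values. For Brdt this depends on the strand of its reads, as given below. Piwil2, Sycp2, Tex14, Ddx4 and Dmc1, with lowest values of 3.72, 2.62, 2.49, 2.34 and 1.39, did not meet the rule for lines without reads. As the rule needs at least 3 such lines, fewer lines without reads would not show.

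Clones of the 2 embryos were compared next. Of the 14 genes with an average above 0, 8 differed, and all 8 were higher in MEF-1 (limma, Benjamini-Hochberg adjusted p under 0.05 over 15285 genes). The 2 embryos' lines differed widely, with 56.1% of all tested genes called, 28.6% higher in MEF-1 and 27.5% higher in MEF-2. The share of the germline genes called (57.1%) was thus near that of all genes. None was called higher in MEF-2, at an adjusted or an unadjusted p under 0.05, and only Sycp2 and Tex15 had a lower mean in MEF-1. For 5 genes the sets did not overlap, with each MEF-1 clonal line above each MEF-2 clonal line (35.7% of the 14, against 13.6% of all tested genes). The median difference, MEF-1 minus MEF-2, was 0.53 over the 14 genes and 0.0043 over all tested genes. As the 14 passed a limit on their average over both sets, a gene that is high in 1 set only could pass through that set.

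**Figure D2:**
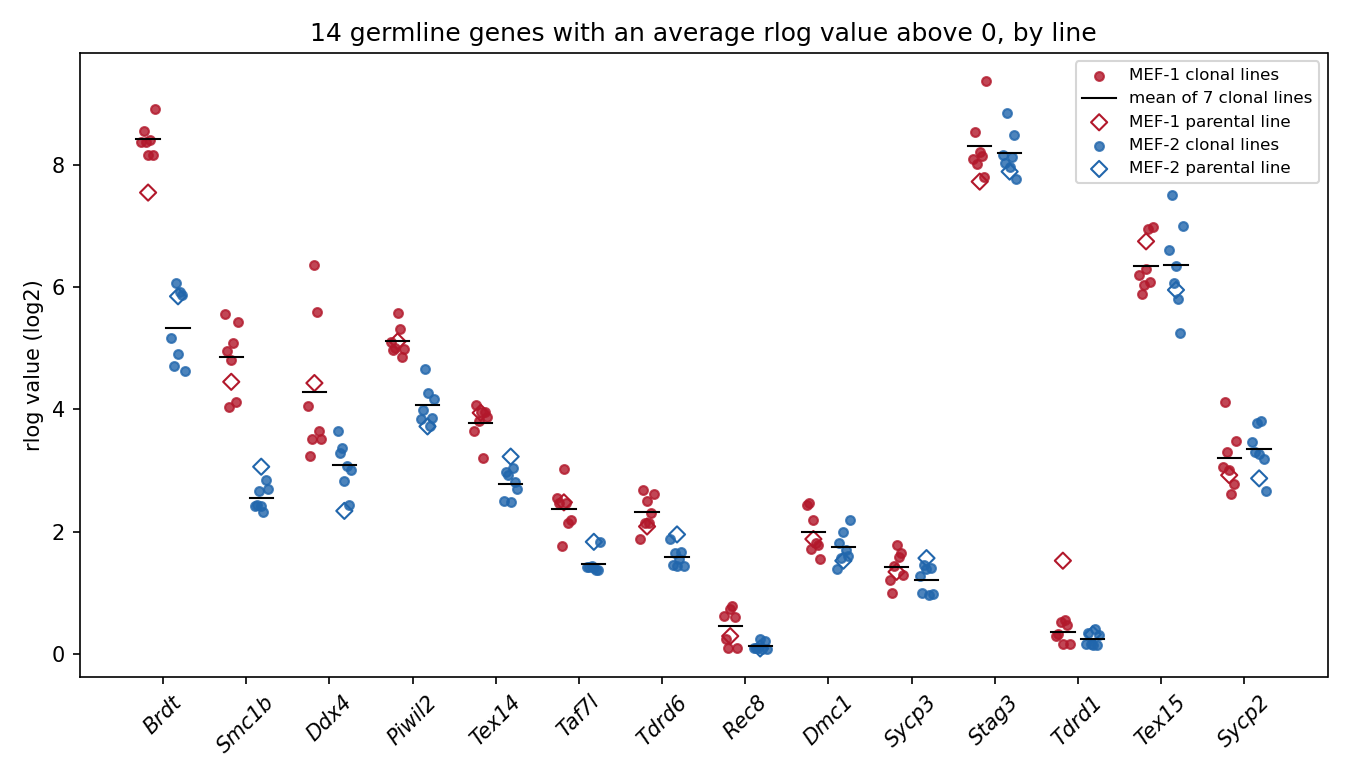
rlog values (vertical axis, log2) of the 14 germline genes with an average above 0, ordered by the difference between the sets. Points are clonal lines of MEF-1 (red) and MEF-2 (blue), bars the mean of 7 clonal lines and diamonds the parental lines, and Brdt shows all MEF-1 lines above all MEF-2 lines.

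Among the genes of meiotic chromosomes, the cohesin subunits of meiosis took different courses. Smc1b, the meiotic form of the SMC1 subunit (chr15:85064689-85131964), ran from 4.05 to 5.57 in clones of MEF-1 (median 4.95) and from 2.33 to 2.85 in those of MEF-2 (median 2.44), with the parental lines at 4.45 and 3.06. Each MEF-1 clonal line was above each MEF-2 clonal line. The means were 4.86 ± 0.59 and 2.55 ± 0.19 (SD, n = 7 each), a difference of 2.31 ± 0.23 (SE) on the rlog scale (limma, adjusted p = 7.75e-07). MEF-2 clonal lines 1, 2, 4 and 5 were at the level of a line without reads, while all 7 MEF-1 clonal lines lay above it. Rec8, the meiotic partner that closes the cohesin ring, was near that level throughout, from 0.10 to 0.80 in clones of MEF-1 (median 0.61) and from 0.08 to 0.25 in those of MEF-2 (median 0.10), with 0.30 and 0.09 in the parental lines. Its sets overlapped, with 5 MEF-1 and 2 MEF-2 clonal lines above the level without reads. The difference of Rec8, 0.32 ± 0.12 (SE; limma, adjusted p = 0.0279), lost its call when MEF-1 clonal line 1, 4, 5 or 6 was left out (adjusted p = 0.0523 to 0.0592). Stag3, a further meiotic subunit (chr5:138280240-138312393), was expressed in every line, from 7.80 to 9.36 in clones of MEF-1 (median 8.14) and from 7.77 to 8.84 in those of MEF-2 (median 8.12), with 7.72 and 7.89 in the parental lines. The sets overlapped almost fully (difference 0.12 ± 0.22, SE; limma, adjusted p = 0.680), and the sign turned to −0.06 without MEF-1 clonal line 7.

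Sycp2 and Sycp3 of the synaptonemal complex, which ties paired chromosomes together, and the recombinase Dmc1 were not called. Sycp2, of its axial element, lay between 2.62 and 4.12 in clones of MEF-1 (median 3.07) and between 2.67 and 3.81 in those of MEF-2 (median 3.31; difference −0.16 ± 0.23, SE; limma, adjusted p = 0.577). Its partner Sycp3 ran from 0.99 to 1.78 (median 1.44) and from 0.97 to 1.45 (median 1.28), with 1 MEF-1 and 3 MEF-2 clonal lines at the level without reads (0.21 ± 0.13, SE; limma, adjusted p = 0.193). The annotation places Chpt1, a gene of phospholipid synthesis, over Sycp3 on the opposite strand, and which strand setting was used in counting is not stated. Dmc1, the meiotic strand exchange protein, ran from 1.55 to 2.48 (median 1.82) and from 1.39 to 2.19 (median 1.71; 0.24 ± 0.17, SE; limma, adjusted p = 0.234). In all 3 genes the clones of both embryos overlapped over most of their range.

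Of the piRNA genes, Piwil2 (Mili, a PIWI protein that binds piRNAs) lay between 4.85 and 5.57 in clones of MEF-1 (median 5.01) and between 3.73 and 4.66 in those of MEF-2 (median 3.99), with 5.11 and 3.72 in the parental lines. The sets did not overlap, and the means differed by 1.04 ± 0.16 (SE; limma, adjusted p = 6.96e-05). Tdrd6, a Tudor protein of germ granules, ran from 1.88 to 2.68 (median 2.31) and from 1.44 to 1.88 (median 1.55). Its sets only just did not overlap, as the lowest MEF-1 clone and the highest MEF-2 clone were both at 1.88, and the means differed by 0.74 ± 0.13 (SE; limma, adjusted p = 0.000226). MEF-2 clonal lines 2, 4 and 7 lay at the level without reads. Tex15, needed for piRNA-directed silencing and for meiosis, was not called, with 5.88 to 6.99 in clones of MEF-1 (median 6.20) and 5.25 to 7.50 in those of MEF-2 (median 6.34; −0.02 ± 0.31, SE; limma, adjusted p = 0.960). Tdrd1, a Tudor partner of PIWI proteins, ran from 0.16 to 0.55 (median 0.33) and from 0.14 to 0.42 (median 0.17; 0.11 ± 0.08, SE; limma, adjusted p = 0.276). It lies on chromosome 19, whose genes were higher in MEF-1 by a median of 0.38, and with the median of each chromosome removed its difference became −0.25 (adjusted p = 0.0170).

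Ddx4 (Vasa, an RNA helicase by which germ cells are recognised, chr13:112598333-112652475) was the gene with the widest spread between clonal lines. In MEF-1 it stood at 6.36 in clonal line 4 and at 5.59 in clonal line 5, at 4.06 in line 1, at 3.66 in line 6, and from 3.24 to 3.52 in the other 3. In clones of MEF-2 it ran from 2.43 to 3.64 (median 3.08). The parental lines were at 4.43 (MEF-1) and 2.34 (MEF-2). Clonal lines 4 and 5 of MEF-1 were thus above every other line, and 3 of the other MEF-1 clonal lines lay within the range of the MEF-2 clonal lines. The means were 4.28 ± 1.20 and 3.09 ± 0.39 (SD, n = 7 each), with a difference of 1.19 ± 0.44 (SE; limma, adjusted p = 0.0317). This call was lost without MEF-1 clonal line 5 (0.97, adjusted p = 0.0660), MEF-2 clonal line 4 (1.14, adjusted p = 0.0552) or MEF-2 clonal line 6 (1.08, adjusted p = 0.0621). The median of chromosome 13, relative to the average clonal line, was −0.11 in clonal line 4 and −0.01 in clonal line 5. The mean over the 10 germ and pluripotent cell markers was 0.58 in line 4 and 0.51 in line 5, where clones of MEF-1 lay between 0.42 and 0.60. Line 5 had the highest mean among them for the markers of gonadal support cells (3.78) and of epithelium (3.45), and line 4 for those of fibroblasts (14.71). The part of these values in the level of Ddx4 was not tested.

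Brdt showed the largest difference of all 35 genes. It codes for a bromodomain protein of the testis that binds acetylated histones (chr5:107331159-107387058). It lay between 8.15 and 8.91 in clones of MEF-1 (median 8.38) and between 4.63 and 6.06 in those of MEF-2 (median 5.16). All clones of MEF-1 were above all clones of MEF-2, and the parental lines, at 7.54 and 5.85, stood in the same order. The means were 8.42 ± 0.26 and 5.32 ± 0.62 (SD, n = 7 each), a difference of 3.09 ± 0.24 (SE; limma, adjusted p = 7.24e-08). Of all tested genes, 7.87% were called and higher in MEF-1 by 1 or more, and Brdt, Smc1b, Ddx4, Piwil2 and Tex14 were among them. Brdt and Smc1b each have an annotated pseudogene on their opposite strand, and reads of the 2 strands could be told apart only with a stranded count, which is not stated.

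The other 2 germ cell genes with an average above 0 were also higher in MEF-1. Tex14, of the bridges that join germ cells, ran from 3.20 to 4.07 (median 3.87) and from 2.49 to 3.04 (median 2.82) without overlap (1.01 ± 0.14, SE; limma, adjusted p = 3.63e-05). Taf7l, an X-linked testis form of a subunit of the general transcription factor TFIID, ran from 1.77 to 3.03 (median 2.46) and from 1.38 to 1.83 (median 1.42). The ranges overlapped at their edges, as the lowest MEF-1 clonal line (line 3) was below the highest MEF-2 clonal line (line 7). Its difference was 0.91 ± 0.16 (SE; limma, adjusted p = 0.000203). For Taf7l, clonal lines 1 to 6 of MEF-2 were at the level without reads, while its parental line, at 1.84, and all MEF-1 lines were above it.

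**Figure D3:**
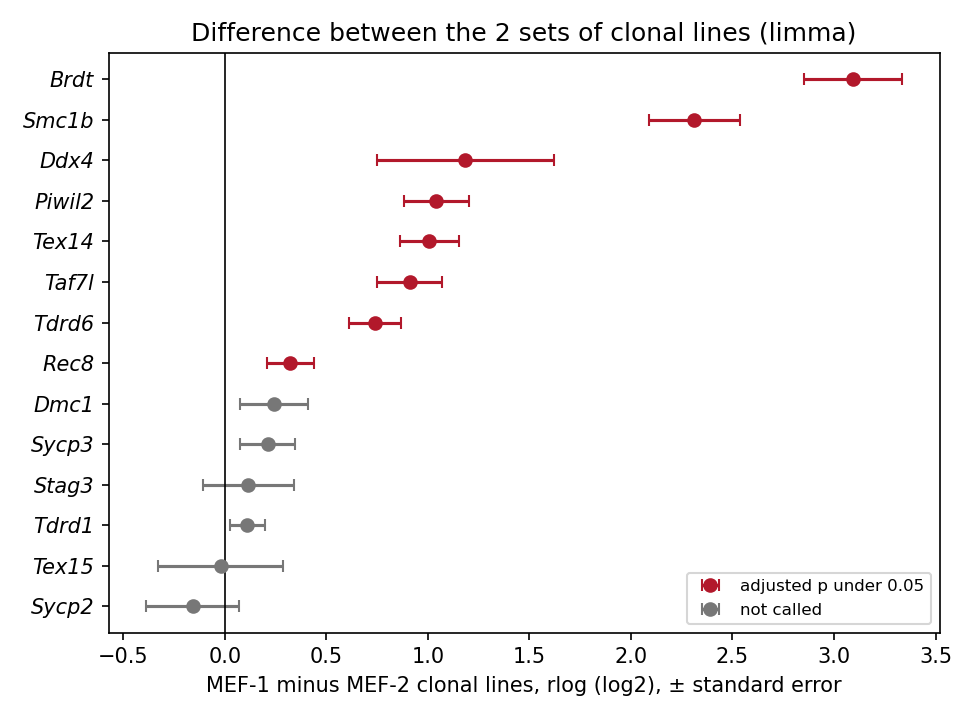
Difference between the 7 MEF-1 and the 7 MEF-2 clonal lines (horizontal axis, rlog, log2) with its standard error from limma for the 14 germline genes with an average above 0. The 8 called genes (red) lie to the right of 0, from 0.32 (Rec8) to 3.09 (Brdt).

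**Figure D4:**
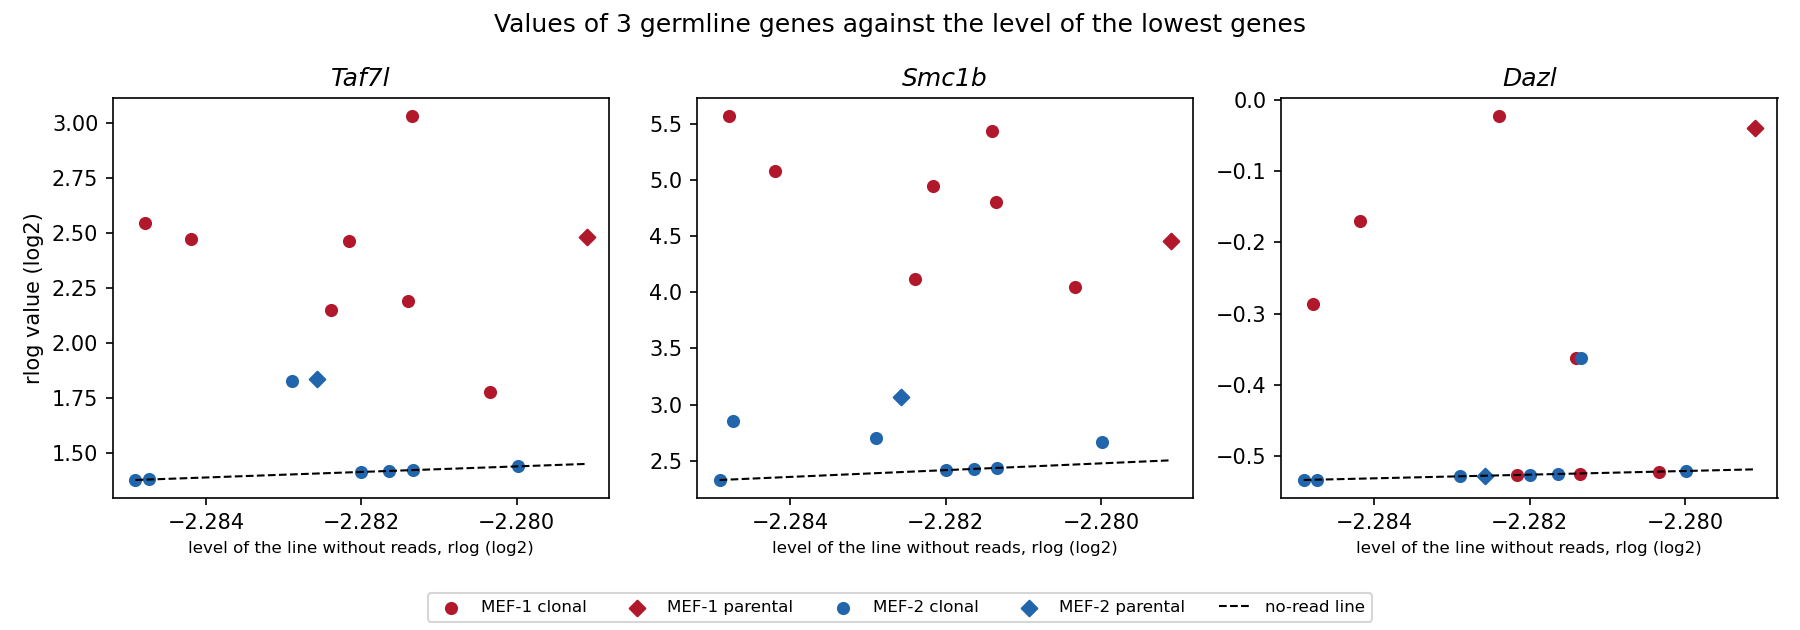
rlog values of Taf7l, Smc1b and Dazl (vertical axes, log2) against the level of the lowest genes in each line (horizontal axes, rlog, log2). MEF-1 is red and MEF-2 blue, circles are clonal lines and diamonds parental lines. Lines without reads of a gene lie on the dashed line, as 6 MEF-2 clonal lines do for Taf7l and 4 for Smc1b.

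Whether a germline gene had come on in a single clonal line was asked for the 30 genes with reads. In none did the highest line lie 1 or more above the next, which was so for 1.26% of protein-coding genes with reads. With so low a share, finding none among 30 genes says little. The shrinkage of rlog also understates such a gap for genes with few reads, which makes the limit of 1 hard for them to reach. Just under this limit, Tdrd1 stood 0.98 above the next line, but in the MEF-1 parental line, at 1.53 against 0.16 to 0.55 in its clonal lines. Ddx4 followed with 0.77 (MEF-1 clonal line 4), Stag3 with 0.52 (MEF-1 clonal line 7) and Tex15 with 0.50 (MEF-2 clonal line 2). With a limit of 0.5 these 4 genes would pass, against 5.89% of all genes. A range of 2 or more within a set of 7 clonal lines was reached by Ddx4 in MEF-1 (3.12), as by 5.69% of tested genes, and by Tex15 in MEF-2 (2.26), as by 4.7%. At a range of 1.5 the number was 5 (Sycp2, Stag3, Smc1b and Ddx4 in MEF-1, Tex15 in MEF-2), with 11.8% of tested genes in MEF-1 and 8.72% in MEF-2, and at a range of 3 it was Ddx4 alone, with 1.49% and 1.24%. The Stag3 value in MEF-1 clonal line 7 (9.36) coincided with the highest Brdt value (8.91). Both genes lie on chromosome 5, whose median was 0.25 above the average clonal line in that line and between −0.05 and 0.03 in the others. The part of this in the 2 values was not tested.

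The 16 genes with an average below 0 were at the level without reads in most lines. Of 256 pairs of gene and line, 55 lay above it, by a median of 0.14 and at most 0.72 on the rlog scale. Every one of the 16 had from 1 to 6 lines above the level. Piwil1 (Miwi) and Dppa4 were above it in MEF-1 clonal line 5 alone, each by 0.019, and Syce1, of the synaptonemal complex, in MEF-2 clonal line 5 alone, by 0.070. Asz1, Fkbp6 and Stk31 stood above it in 3, 2 and 4 lines, and within each gene the heights were the same to 2 digits (0.055, 0.039 and 0.085 or 0.086).

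Of the 16, Dppa2 and Dazl reached a height of 0.5 or more above the level in some line. Dppa2, a chromatin protein of pluripotent cells, was above the level in MEF-1 clonal lines 2, 3, 5 and 7 and in MEF-2 clonal line 2, with its highest value, 0.26, in MEF-1 clonal line 5. Dazl, an RNA-binding protein required for germ cells, was above it in the MEF-1 parental line, in MEF-1 clonal lines 1, 5, 6 and 7 and in MEF-2 clonal line 2, with its highest value, −0.02, in MEF-1 clonal line 6. Most of these lines were of MEF-1, but without the limit on the average limma called neither (adjusted p = 0.132 for Dppa2 and 0.0898 for Dazl) nor any of the other 14. Dppa2 and Dppa4, which are neighbours on chromosome 16 and work as a pair, shared only MEF-1 clonal line 5.

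The lines with values above the level differed from gene to gene. Of the piRNA pathway, Piwil4 (Miwi2) was above the level in 4 lines, the helicase Mov10l1 in 4, Gtsf1 in 4, Tdrd9 in 5 and Tdrd5 in 2, with the highest step of these 5 genes, 0.40, for Tdrd9 in MEF-1 clonal line 7. Tex11, an X-linked protein of meiotic crossing over, was above it in 5 lines, Sycp1 in 3, and the testis ADP/ATP carrier Slc25a31 in 5. The number of the 16 genes above the level ran from 0 (line 4) to 7 (line 7) in MEF-1 and from 0 (line 3) to 6 (line 6) in MEF-2. The share of the 2898 protein-coding genes of the same kind above it was 24.2% in MEF-1 line 4, 28.3% in MEF-1 line 7, 12.7% in MEF-2 line 3 and 18% in MEF-2 line 6, and the differences from it in single lines were not tested. In all, 25.9% of 112 pairs were above the level in clones of MEF-1 and 18.8% of 112 in those of MEF-2. Over the 2898 genes the shares were 24.1% and 16.5%, so the germline genes lay close to this background in both sets.

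**Figure D5:**
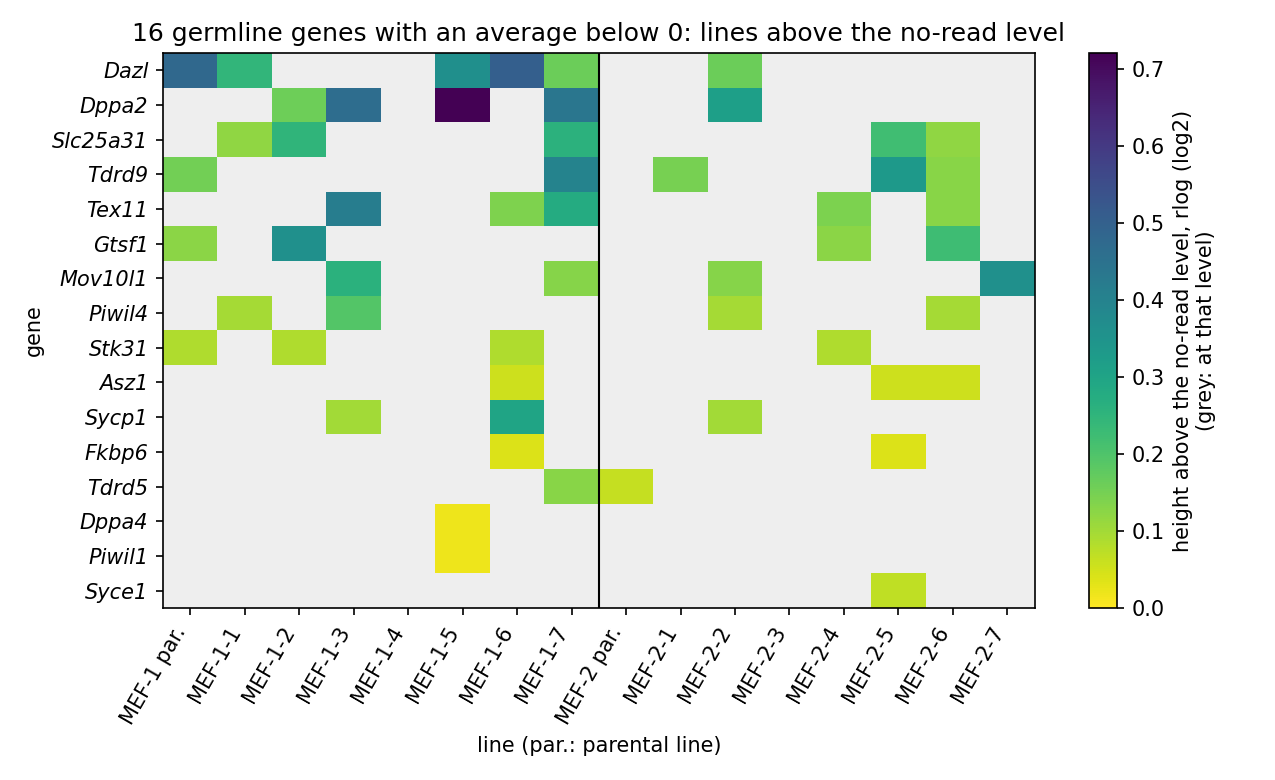
Height above the level without reads (colour, rlog, log2) for the 16 germline genes with an average below 0 (rows) in the 16 lines (columns, MEF-1 left and MEF-2 right of the black line). Grey marks lines at that level. The coloured cells are spread over the lines, and the darkest is Dppa2 in MEF-1 clonal line 5 (0.72).

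Each parental line has 1 library and was compared without a test. All 7 MEF-1 clonal lines were above their parental line for Stag3 and Brdt (20.8% of tested genes) and below it for Tdrd1 (20.2%). In MEF-2, all 7 were above the parental line for Piwil2 and Ddx4 (18.5%) and below it for Sycp3, Smc1b, Tdrd6, Tex14 and Taf7l (15.8%). For these last 5 genes the parental line had 1.57, 3.06, 1.96, 3.23 and 1.84, and the mean of the clones minus the parental line was between −0.52 and −0.36. Of these, Smc1b, Tdrd6, Tex14 and Taf7l were also among the 8 genes higher in MEF-1.

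A list of 50 further germline genes was read next to the 35. Of these, 8 were at 0 in all lines, 27 had an average of 0 or lower, and of the 23 tested, 6 were higher in MEF-1 and 10 in MEF-2 (median difference −0.19). This list thus held calls in both directions, where 28.6% of all tested genes were higher in MEF-1 and 27.5% in MEF-2. Higher in MEF-1 were Tdrd7 (1.73 ± 0.14, SE; limma, adjusted p = 9.83e-08), a relative of Tdrd1 and Tdrd6 that is also made outside the germline, Syce2 of the synaptonemal complex (1.10) and Pld6, a mitochondrial protein of piRNA production (0.84). Higher in MEF-2 were Mlh3 (−2.65 ± 0.12, SE; limma, adjusted p = 4.59e-10), a mismatch repair protein used in meiotic crossing over, Mei4, needed for meiotic DNA breaks (−1.36), and Meioc, needed for the meiotic programme (−1.27). Mlh3 lies on chromosome 12, whose genes had a median difference of −0.63.

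Of 24 genes for repressors of germline genes and for DNA methylation, all but Dnmt3l had an average above 0. Of the 23 tested, 4 were higher in MEF-1 and 14 in MEF-2 (median difference −0.29), against 28.6% and 27.5% of all tested genes. The 4 were the X-linked Polycomb protein Scml2 (1.21, limma, adjusted p = 0.000466), Pcgf6, the histone methyltransferase Ehmt2 (0.30, adjusted p = 0.00143) and Mga. E2f6 (−0.48, limma, adjusted p = 0.00969) and Max (−0.53, adjusted p = 1.43e-07) were lower in MEF-1. Both lie on chromosome 12, whose genes had a median difference of −0.63, larger than that of either gene. Mga (0.28, limma, adjusted p = 0.00202) and Pcgf6 (0.56, adjusted p = 4.49e-06), of the same complex, were higher in MEF-1, with Pcgf6 on chromosome 19. Of the repressor genes listed beside them, L3mbtl2 (−0.45, limma, adjusted p = 0.000122) and Rnf2 (−0.27, adjusted p = 0.000394) were also lower in MEF-1. Ring1 (limma, adjusted p = 0.992) and Cbx3 (adjusted p = 0.0584) were not called. The methyltransferases Dnmt1 (−0.29, limma, adjusted p = 0.0303), Dnmt3a (−0.80, adjusted p = 3.79e-06, on chromosome 12) and Dnmt3b (−0.50, adjusted p = 0.00123) and their cofactor Uhrf1 (−1.15, adjusted p = 0.000270) were lower in MEF-1, as was the Polycomb enzyme Ezh2 (−0.97, adjusted p = 7.65e-06). With chromosome medians removed, 4 genes of this list were called higher in MEF-1 and 12 higher in MEF-2. The relation of the levels of these genes to the germline genes was not tested.

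Markers of other cell types moved between the sets as well. Of 6 markers of gonadal support cells, Wt1 and Nr5a1 had an average of 0 or lower, and 2 of the 4 tested were higher in MEF-1 (Foxl2 and Amh, by 0.82 and 0.70), the mean over the 6 lying between 3.14 and 3.78 in clones of MEF-1 and between 3.00 and 3.22 in those of MEF-2. Of the 10 fibroblast markers, 4 were higher in MEF-1 (Dcn by 4.74, Lum by 3.68, Pdgfra by 1.85 and Col3a1 by 0.60), Thy1 was higher in MEF-2 (−2.59; limma, adjusted p = 0.00392), and 5 were not called. Of the epithelial, endothelial and blood markers (4 each), 0, 1 and 0 were higher in MEF-1 and 0, 0 and 1 in MEF-2. The part of these differences in those of the germline genes was not tested.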

How the data were processed

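Total RNA (rRNA-depleted, directional libraries, paired reads of 150 bases) of 16 lines was used. Reads were trimmed by the authors with Trim Galore 0.6.0, transcripts were quantified with Salmon 1.5.2 (mm10, Ensembl release 102), and the authors deposited log2 values made with the rlog transformation of DESeq2 1.24.0, 1 per gene and line. How transcripts were summed to genes, the strand setting and whether the transformation was blind are not given in the sources used here. Shrinkage of rlog understates differences of genes with few reads, and without counts no counting interval can be given.

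Genes were matched by identifier to GENCODE mouse release 21, with 54200 of 54453 matched. The germline genes and the other lists were chosen with earlier results of these data known. Clonal lines were grouped by their labels. The sets of 7 clonal lines were set against each other on the rlog values with limma 3.58.1 (R 4.3.3, trended variance prior, no pseudocount) over 15285 protein-coding genes with an average above 0. Calls are Benjamini-Hochberg adjusted p-values under 0.05, two-sided. The rule for lines without reads is given with the results. Its limit of 50 on the slope of the line was added after a steep chance match for Piwil2 was seen, and the range of 2 within a set was also chosen after the values were seen. Named are all 35 genes, for each of the lists of further germline genes and of repressor and DNA methylation genes the 3 called genes that differed most upward and the 3 that differed most downward, and, chosen after their values were seen, E2f6, Max, Mga, L3mbtl2, Rnf2, Ring1, Cbx3, Dnmt1, Dnmt3b and the marker genes. The fit and the rule were tested on simulated data. Alternatives were another filter, no trend, centring of lines, removal of chromosome medians, added parental lines and leaving out each clonal line. Python 3.11.15 with pandas 2.3.3, numpy 2.4.6 and matplotlib 3.10.9 was used.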

Additional observations from a re-analysis of the deposited data

Results flagged for a closer look

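Over the 28 groups of 7 clonal lines (14 germline genes in 2 sets), 1 line stood far from the others, where chance gives about 1 in 20, or 1.4. Taf7l had 1.83 in MEF-2 clonal line 7, where the nearest of the other 6 MEF-2 clonal lines had 1.44, so that the gap took 0.861 of the whole range. Those 6 lines lay at the level without reads. A line with reads stands apart from such lines, so the chance rate does not hold for this group. The parental line, at 1.84, was next to clonal line 7.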

How the results depend on the processing

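Of 116 differences of the 14 genes under the alternatives that keep all clonal lines, 113 kept their direction and their side of the threshold. The exceptions were Tdrd1 with chromosome medians removed (−0.25, adjusted p = 0.0170, limma) and Tex15, which was not called, with lines centred on their medians (0.0124) or the parental lines added (0.0808). Of 196 with 1 clonal line left out, 181 kept both, 7 lost a call (Rec8 and Ddx4) and 8 turned in sign (Stag3, from −0.0598 to 0.223 over the clonal lines left out, and Tex15, from −0.208 to 0.168). With 1 clonal line left out, the called genes numbered 6 to 8, and 0 were higher in MEF-2. With a filter at the 40th percentile, 4 genes of the 35 were tested and 2 were called, both higher in MEF-1, and 10 of 13 of the further germline genes were called, 6 higher in MEF-2, as fewer genes were tested. With chromosome medians removed, 9 of the 35 were called, 1 of them higher in MEF-2 (Tdrd1). A gap of 0.5 in place of 1 gave 4 genes with a line apart, and ranges of 1.5 and 3 in place of 2 gave 5 and 1. Same-numbered clonal lines of both sets did not deviate together (r from −0.13 to 0.20, own number best in 1 of 7), and with the clone number as a block (replicate block) 8 of the 35 were called, as before. A level without reads matched 3.62% of 8648 genes with an average above 10 by coincidence, so a match of 3 or 4 lines is weak on its own.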
